A study of Mus musculus with 10 samples.

Results

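T-box genes encode transcription factors that share one DNA-binding domain, the T-box, and 8 of them with roles in the heart, lung, limb or mesenchyme were followed across cell types grown from the mouse left atrial appendage. They are Tbx1, Tbx2, Tbx3, Tbx4, Tbx5, Tbx15, Tbx18 and Tbx20, and they were taken by gene symbol from the 36172 genes of the expression table, all 10 libraries included. RNA sequencing had been run on 5 cell types with 2 libraries each, all from C57BL/6 mice of 8 to 12 weeks. The labels do not say whether both libraries of a type stem from different animals or dishes. The p-values therefore measure only the spread between these libraries, which may be technical.

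Type A was a primary outgrowth obtained after strong digestion, with 0.25% trypsin and 0.1% collagenase D, and its sort kept cells with c-kit (a receptor found on many progenitor cells) and without CD45 (a leukocyte surface protein). Type B was the primary outgrowth after weak digestion, with 0.05% trypsin and 0.1% collagenase D, sorted as positive for c-kit and for CD45. Digestion and sort therefore differ together between A and B and cannot be told apart. The other types descended from B in culture. C1 cells, from passage 6, were c-kit positive and CD45 negative, whereas C2 cells from passage 8 and C3 cells from passage 10 carried neither marker. Culture and CD45 status therefore differ together between B and C1, as do passage and c-kit status between C1 and each later culture. These cannot be told apart either. No genetic change or drug treatment is named for any of the types. The comparisons ask how the primary types differ and how the cultures differ from B and from one another.

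As background, T-box factors act as activators, repressors or both, and the balance between them sets territories in the developing heart. Tbx5 and Tbx20 work with Gata4 and Nkx2-5 to switch on chamber muscle genes, whereas Tbx2 and Tbx3 repress the same genes in the atrioventricular canal, the outflow tract and the pacemaker tissue. Tbx18 marks the epicardium, the sinus horns and mural cells of vessels, and Tbx15 is its close relative in limb, skin and fat mesenchyme. Tbx1 patterns the pharynx and the second heart field, and Tbx4 the hindlimb and lung mesenchyme.

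The deposited values are log2 values from which each gene's median over the 10 libraries had been removed. They are called centred values here. They were read as normalized reads (reads divided by a library size factor) with values under 1 raised to 1, a reading inferred from the spacing of low values. On it the size factors ran from 0.436 in B replicate 1 to 5.03 in C3 replicate 2, and 3 reads, the limit that a count of 0 allows for counting error only, were worth 2.00 to 6.88 normalized reads in the A, B, C1 and C2 libraries and less than the floor of 1 in C3. Normalized reads could be recovered from the floor for Tbx4 and Tbx5. For Tbx2 and Tbx3 only a level in units of unknown size was found, and a unit may be a part of a read. Such units serve for ratios between libraries of a gene. They cannot be set against the floor, the limit of 3 reads, or the levels of Tbx4 and Tbx5. For Tbx15, Tbx18 and Tbx20 only differences between libraries are known.

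Of the 8 genes, 7 had values and 6 passed the filter of 10 normalized reads in at least 2 libraries, which can act only on genes of known level. Tbx1, on chromosome 16, was listed at 0 in all 10 libraries. Tbx4 was at 1.68 and 5.75 normalized reads in the A libraries, or 1 and 3 reads, and at 2.29 and 3.62 in the B libraries, or 1 and 2 reads. It was at 1.04 in C2 replicate 2 and at the floor of 1 in the other 5 libraries, so no library exceeded its own limit and Tbx4 was not tested. The remaining genes, Tbx2, Tbx3, Tbx5, Tbx15, Tbx18 and Tbx20, are described in turn. To be called higher or lower, a gene needed a limma adjusted p under 0.05 (10 libraries in the fit, Benjamini-Hochberg over the 14253 genes tested) and a log2 difference of 1 or more in size. One spread per gene, which includes the gap between the A libraries, serves all comparisons.

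**Figure D1:**
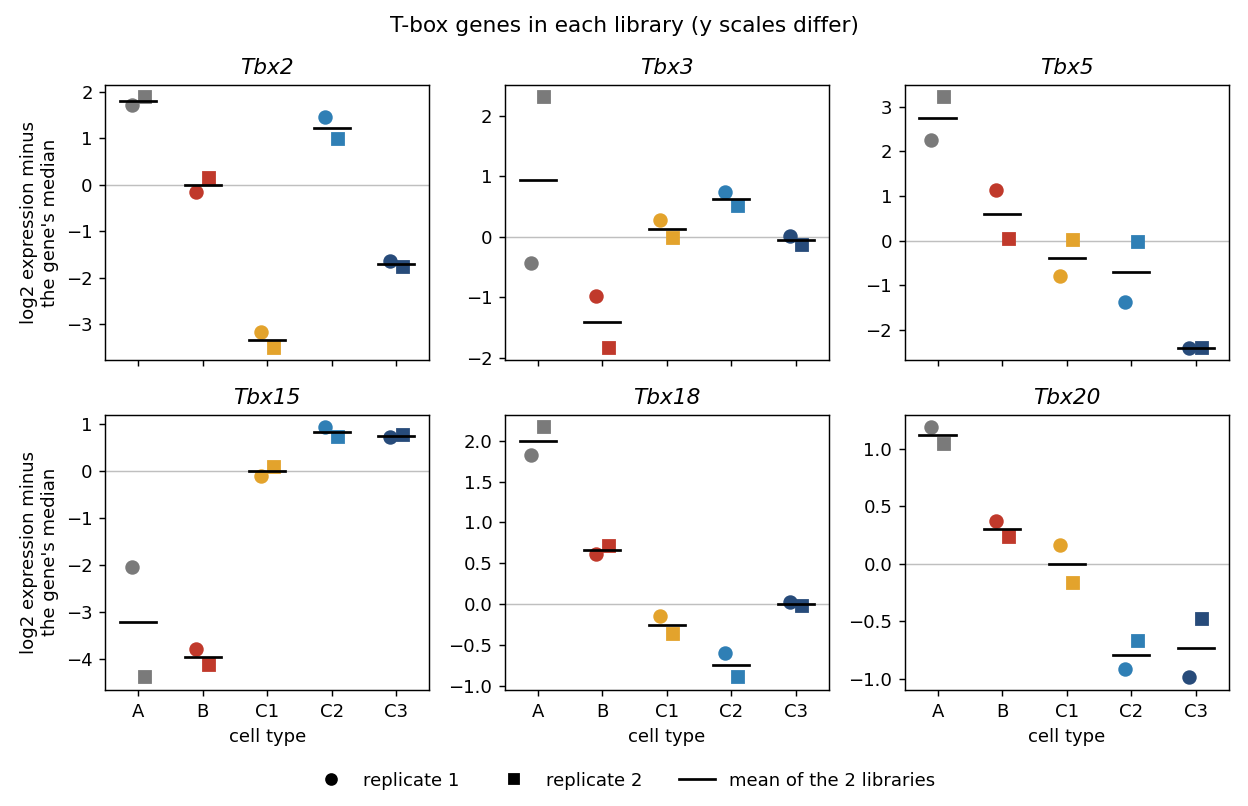
Centred log2 value (vertical axis) of the 6 tested T-box genes in each of the 10 libraries, 1 panel per gene, with points for libraries ordered by cell type and short lines for the mean of the 2 libraries of a type. Tbx2 moved up and down between the cultures, Tbx15 was low in A and B, and the A libraries of Tbx3 and Tbx15 lay far apart.

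Tbx2, the repressor of the atrioventricular canal, was called in each of the 6 comparisons falling from A to B and from B to C1, rising from C1 to C2 and falling from C2 to C3. The gene lies at chr11:85832551-85841948 on the plus strand (GRCm38). In units of unknown size, the A libraries held 7708 and 8587, the B libraries 2106 and 2578, and the C1 libraries 257 and 204. Those of C2 held 6440 and 4624, and those of C3 held 743 and 677. The libraries of each type stayed together and no 2 types overlapped. Means in these units were 8148 ± 622 for A, 2342 ± 334 for B, 231 ± 37.2 for C1, 5532 ± 1284 for C2 and 710.0 ± 46.4 for C3 (SD, n = 2 each). The number of reads behind the C1 values is not known and may be small.

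Tbx2 was 3.49-fold lower in B than in A (log2 difference -1.80 ± 0.21 SE, limma adjusted p = 0.000940). It fell a further 10.2-fold from B to C1 (-3.35 ± 0.21, limma adjusted p = 5.03e-05). From C1 to C2, a step in both passage (6 to 8) and c-kit status, it rose 23.8-fold (4.57 ± 0.21, limma adjusted p = 5.46e-05). From C2 to C3 it fell 7.69-fold (-2.94 ± 0.21, limma adjusted p = 0.000149). C3 stayed 3.10-fold above C1, and C1 was 35.5-fold below A. In order of level the types ran A, C2, B, C3, C1. The difference of C2 from A missed the threshold (-0.58 ± 0.21, limma adjusted p = 0.0826), although their libraries did not overlap. Each of the other 3 neighbouring pairs was called. Across every alternative processing run, the highest adjusted p of Tbx2 in the 6 comparisons was 0.0209.

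Tbx3, the sister repressor known from the pacemaker and conduction tissue, was called in 0 of the 10 pairs of types. It lies at chr5:119670669-119684724 on the plus strand. In units of unknown size, the A libraries held 1703 and 11388 and the B libraries 1165 and 646. Those of C1 held 2792 and 2278, those of C2 held 3852 and 3292, and those of C3 held 2329 and 2100. A replicate 2 was the highest of all libraries and A replicate 1 lay under every culture library, so A spanned the 3 cultures. Both B libraries lay below the other 8. The gap between the A libraries was 6.69-fold, and 3.77% of the tested genes had a larger one.

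The standard error of Tbx3, which includes that gap, was 0.79 on the log2 scale. The difference of B from A was -2.34 (limma adjusted p = 0.0517), and without A replicate 1 it was -3.71 (limma adjusted p = 0.000675). Without A replicate 2 it was -0.97, and with a filter of 50 normalized reads the full difference passed (limma adjusted p = 0.0497). C1 differed from A by -0.80 (limma adjusted p = 0.435), by -2.17 without A replicate 1 (limma adjusted p = 0.00468) and by 0.57 without A replicate 2. C1 exceeded B by 1.54 ± 0.79 (limma adjusted p = 0.143). In a fit without both A libraries, chosen after seeing the data, the same difference had a standard error of 0.29 and was called (limma adjusted p = 0.00497, and 0.0306 in a fit of the B and C1 libraries alone), as were C2 over B by 2.04 (limma adjusted p = 0.00159) and C3 over B by 1.35 (limma adjusted p = 0.00703). Among the 3 cultures Tbx3 ran from 2215 ± 162 units in C3 to 3572 ± 396 in C2 (SD, n = 2 each). None of the 3 pairs was called, with or without the A libraries.

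**Figure D2:**
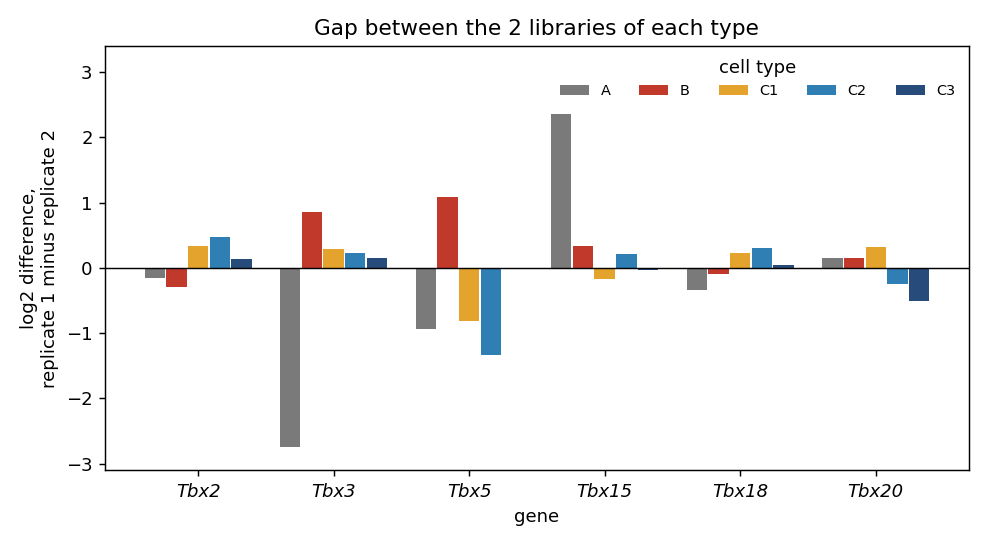
Gap between the 2 libraries of a type (replicate 1 minus replicate 2, log2, vertical axis) for the 6 tested T-box genes, with 1 bar per cell type. In A, Tbx3 was 6.69-fold higher in replicate 2 and Tbx15 was 5.13-fold higher in replicate 1, while Tbx2, Tbx18 and Tbx20 differed by at most 1.26-fold.

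Tbx5, an activator required for atrial and limb development, was the only tested T-box gene whose level was known in normalized reads. It lies at chr5:119832668-119885219 on the plus strand. It was at 25.2 and 48.4 normalized reads in the A libraries and at 11.5 and 5.43 in B. The C1 libraries held 3.02 and 5.34, the C2 libraries 2.04 and 5.18, and both C3 libraries were at the floor of 1. The A libraries were the highest of the 10 and the C3 libraries the lowest, while C1 and C2 overlapped. The mean fell from 36.8 ± 16.4 in A to 8.45 ± 4.27 in B (SD, n = 2 each), a log2 difference of -2.15 ± 0.58 (limma adjusted p = 0.0245). B rests on 5 and 3 reads, and the call ended without B replicate 2 (limma adjusted p = 0.139), without A replicate 2 (0.0965) and in a fit of the A and B libraries alone (0.0822).

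C1, at 4.18 ± 1.64, lay below A (-3.12 ± 0.58, limma adjusted p = 0.00557). The C2 mean, 3.61 ± 2.22, was under the limit of 6.12 for that type, so a difference from C1 was not detectable at this depth. C3 lay under C1 (limma adjusted p = 0.0241), which puts Tbx5 at least 4.18-fold higher in C1 and at least 36.8-fold higher in A than in C3. That call between C3 and C1 ended without C1 replicate 2, and without either C3 library. Against C2 the C3 libraries missed the threshold (limma adjusted p = 0.0504), and passed it in the fit without both A libraries (0.0436). Since C2 replicate 1 held 1 read and both C3 libraries were at the floor, the size of that difference is not known.

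The genome holds 4 of these genes as neighbouring pairs. Tbx2 and Tbx4 are 44.5 kb apart on chromosome 11, and Tbx3 and Tbx5 are 148 kb apart on chromosome 5. Tbx4 was not above the limit in any type, and its level cannot be set against that of Tbx2, whose unit is unknown. Tbx3 and Tbx5 could not be ranked either, since Tbx5 is scaled by the floor and Tbx3 is not. Tbx2 and Tbx3 were compared per kilobase of exon, on the untested condition that their units are the same. On that condition the ratio of Tbx2 to Tbx3 per kb changed sides between types. It was 2.27 in A, 4.72 in B and 2.83 in C2, so Tbx2 was then the more abundant there, but 0.166 in C1 and 0.586 in C3. These ratios are of type means, and the A ratio rests on the Tbx3 libraries that lay 6.69-fold apart.

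**Figure D3:**
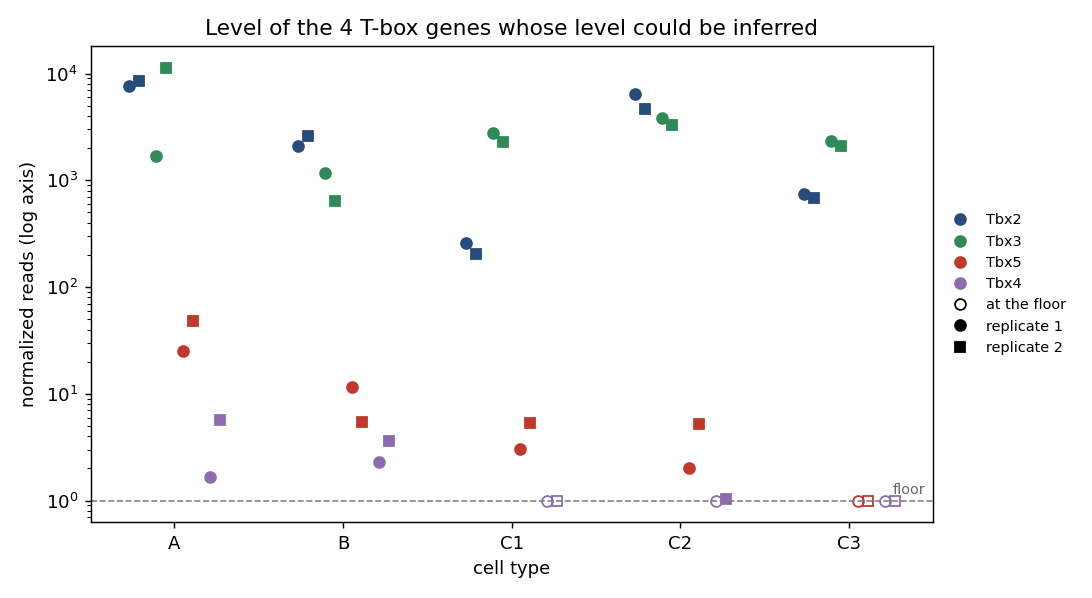
Inferred level (vertical axis, log scale, labelled normalized reads) of Tbx2, Tbx3, Tbx4 and Tbx5, with 1 point per library for each of the 5 cell types. Tbx4 and Tbx5 are in normalized reads scaled by the floor. Tbx2 and Tbx3 are in units of unknown size, so their heights cannot be compared with the floor line, Tbx4 or Tbx5. Tbx5 fell to the floor of 1 in C3, and Tbx4 stayed near the floor throughout.

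Tbx18 and Tbx20, both on the minus strand of chromosome 9, were highest in A, intermediate in B and lower in the cultures. Because they moved together over the libraries (Pearson r = 0.878 over 10 libraries, which come from 5 types and are not independent), the 250 bases before each start site are shown, read 5′ to 3′ on the minus strand from the RefSeq promoter table (GRCm38.p6). The capitals mark CG dinucleotides. The windows are chr9:87731261-87731510 for Tbx18 and chr9:24774304-24774553 for Tbx20.
Tbx18: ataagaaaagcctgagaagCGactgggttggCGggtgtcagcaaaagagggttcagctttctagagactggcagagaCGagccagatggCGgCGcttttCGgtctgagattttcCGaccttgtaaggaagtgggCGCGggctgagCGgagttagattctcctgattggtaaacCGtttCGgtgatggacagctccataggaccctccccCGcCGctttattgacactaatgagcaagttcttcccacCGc
Tbx20: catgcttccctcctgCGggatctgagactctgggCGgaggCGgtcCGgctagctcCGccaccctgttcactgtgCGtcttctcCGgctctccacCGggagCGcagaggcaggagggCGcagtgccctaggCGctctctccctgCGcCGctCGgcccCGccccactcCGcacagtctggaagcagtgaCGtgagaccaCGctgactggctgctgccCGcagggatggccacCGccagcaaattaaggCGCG
The Tbx18 window had a GC content of 54% and 15 CG dinucleotides, the Tbx20 window 68.8% and 22. The medians over 32851 promoters of the table were 52.4% and 6. Neither window held, on either strand, the T-box half-site AGGTGTGA, its shorter form GGTGTGA, which the longer one contains, or the GATA motif AGATAA. These letters occur in 1.12%, 3.33% and 9.99% of promoter windows of that length. The table matched 4 of the 8 genes.

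Tbx18, the epicardial and mural cell factor, had centred values of 1.83 and 2.16 for A, 0.62 and 0.71 for B, -0.14 and -0.36 for C1, -0.60 and -0.89 for C2 and 0.02 and -0.02 for C3. The libraries of each type stayed together and no 2 types overlapped. Tbx18 was 2.52-fold lower in B than in A (-1.33 ± 0.18, limma adjusted p = 0.00144) and 4.75-fold lower in C1 than in A (-2.25 ± 0.18, limma adjusted p = 0.000228). C1 lay below B by 0.92 on the log2 scale (limma adjusted p = 0.00477), and C3 above C2 by 0.75 (limma adjusted p = 0.0135), both under the size required for a call. Without C1 replicate 1 the former was -1.03 and was called (limma adjusted p = 0.0158). In the order A, B, C3, C1, C2 only the step from A to B was called. A gene on the opposite strand, D030062O11Rik, shares 20.6% of the exon bases of Tbx18, and the library kit does not mark strand, so reads of the pair cannot be told apart there.

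Tbx20, a factor of the myocardium and endocardium, had centred values of 1.19 and 1.05 for A, 0.38 and 0.23 for B, 0.16 and -0.16 for C1, -0.92 and -0.67 for C2 and -0.99 and -0.48 for C3. It had the smallest range of the 6 tested genes, 4.53-fold from lowest to highest library, against 8.32-fold for Tbx18 and 42.0-fold for Tbx2. A lay above all other libraries, and only C2 and C3 overlapped. Tbx20 was 2.17-fold lower in C1 than in A (-1.12 ± 0.21, limma adjusted p = 0.00624). Without C1 replicate 2 this difference was -0.95, under the size required. The differences of B from A (-0.82, limma adjusted p = 0.0219), C2 from C1 (-0.79, 0.0277) and C3 from C1 (-0.74, 0.0246) were also under that size. None of the 4 neighbouring steps in the order A, B, C1, C3, C2 was called.

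Tbx15, the mesenchymal relative of Tbx18, ran the other way, with the cultures above both primary types. The gene lies at chr3:99240381-99354259 on the plus strand. Its centred values were -2.03 and -4.38 for A and -3.78 and -4.12 for B, against -0.09 and 0.09 for C1, 0.94 and 0.73 for C2 and 0.74 and 0.77 for C3. All 6 culture libraries lay above all 4 primary ones, and B lay between the A libraries, which were 5.13-fold apart. Tbx15 was 15.4-fold higher in C1 than in B (3.95 ± 0.65, limma adjusted p = 0.00244) and 9.22-fold higher in C1 than in A (3.20 ± 0.65, limma adjusted p = 0.00791). In a fit of the A and C1 libraries alone the latter was not called (limma adjusted p = 0.0950). The filter could not act on Tbx15, whose level is unknown, and the reads behind its low values in A and B may be few.

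The difference of B from A in Tbx15 took its sign from 1 library. It was -0.74 with both A libraries (limma adjusted p = 0.402), -1.92 without A replicate 2 (limma adjusted p = 0.000664) and 0.44 without A replicate 1. C2 lay 0.84 and C3 0.75 above C1 on the log2 scale, not called with the A libraries (limma adjusted p = 0.362 and 0.373). Without them the adjusted p fell to 0.00873 and 0.00817, with the differences still under the size required. C2 and C3 did not differ beyond their spread (-0.08, limma adjusted p = 0.953).

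Counted by comparison, 3 of the 6 tested T-box genes were called in B versus A, all lower (Tbx2, Tbx5 and Tbx18), where 26.9% of all tested genes were called, 14.5% higher and 12.4% lower. The median log2 difference of the 6 was -1.57, against 0.01 over all genes. In C1 versus B, 1 rose (Tbx15) and 1 fell (Tbx2), beside 33.7% of all genes (12.6% higher and 21.1% lower), with a median of -0.61 against -0.07. In C2 versus C1 only Tbx2 was called, higher, beside 20.4% of all genes (12.2% higher and 8.18% lower), with a median of 0.10 against 0. In C3 versus C2 only Tbx2 was called, lower, beside 27.9% (11.6% higher and 16.2% lower), with a median of -0.39 against 0. In C3 versus C1, Tbx2 was higher and Tbx5 lower, beside 34.8% (17.1% higher and 17.7% lower), with a median of 0.03 against 0. In C1 versus A, 5 of the 6 were called, Tbx15 higher and Tbx2, Tbx5, Tbx18 and Tbx20 lower, beside 26.6% of all genes (10.1% higher and 16.6% lower), with a median of -1.68 against -0.04. The comparisons that share a type share its libraries.

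Set against A, C2 had 4 called genes of 6, with 1 higher and 3 lower, beside 18.4% of all genes (7.75% higher and 10.6% lower). C3 had 5 of 6 against A, with 1 higher and 4 lower, beside 34.3% (14.4% higher and 19.9% lower). The higher gene was Tbx15 in both, by 4.04 and 3.96 on the log2 scale, and Tbx18 was lower in both (-2.74 in C2). Set against B, 4 of 6 were called in C2, with 2 higher and 2 lower, beside 33.9% of all genes (14.5% higher and 19.4% lower). In C3 against B, 1 was higher and 3 were lower, beside 41.4% (16.7% higher and 24.7% lower). Over the 6 genes, 6 of the 24 neighbouring pairs in order of level were called, 3 of them in Tbx2, beside 11.3% of the neighbouring pairs of all tested genes ordered the same way. The order comes from the values that the test reads, so these counts are a description.

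**Figure D4:**
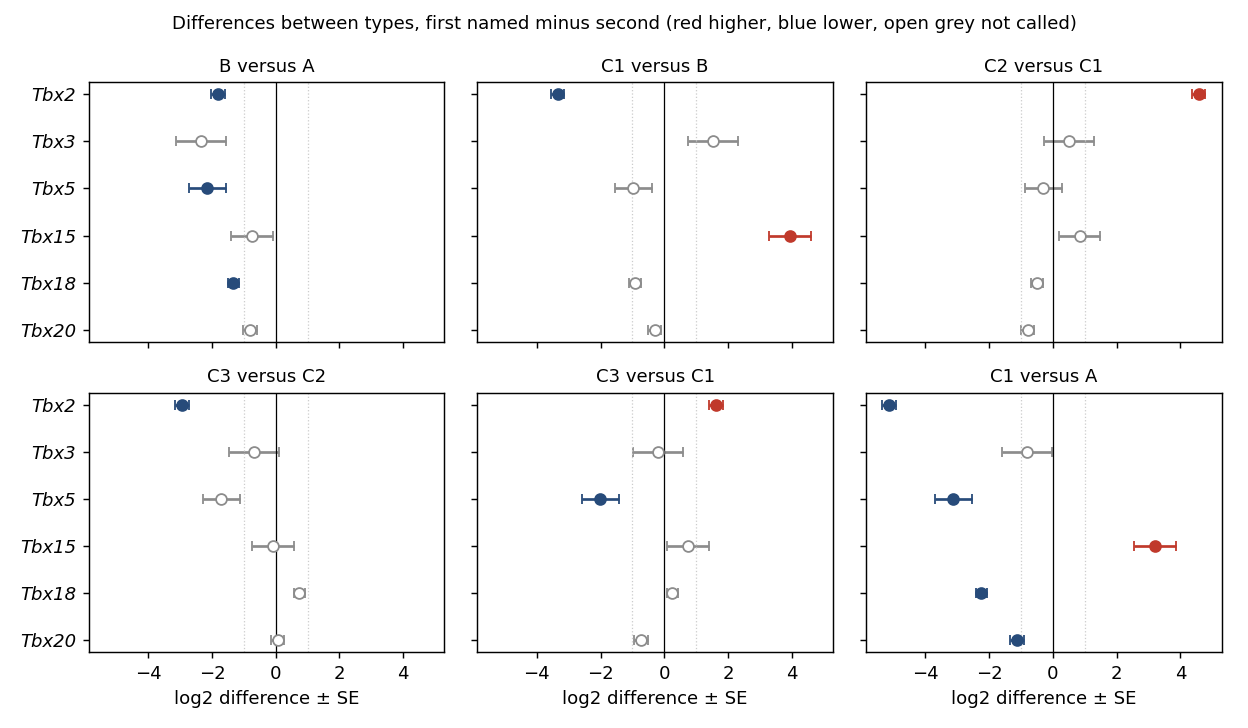
Log2 difference with its standard error (horizontal axis) of the 6 tested T-box genes in each of the 6 comparisons, with filled points for called genes, which needed a limma adjusted p under 0.05 and a difference of 1 or more in size. Tbx2 was called in all 6 panels, and 5 of the 6 genes were called in C1 versus A.

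Factors that bind together with T-box proteins were read from a list of 13, of which 7 were tested. Hand1 and Isl1 were listed at 0, and Gata5, Nkx2-5, Sall4 and Ripply3 did not pass the filter. In B versus A, 5 of 7 fell and 1 rose, with a median of -1.68, beside 26.9% of all tested genes called in either direction. Gata4, the partner of Tbx5 and Tbx20 in chamber gene activation, differed by -2.33 ± 0.16 on the log2 scale, and Hand2, a basic helix-loop-helix factor of the heart and its mesenchyme, fell by 1.72. Mef2c, a muscle factor also made in macrophages and endothelium, rose by 1.90 ± 0.40. Smarcd3, the chromatin remodelling subunit that works with Tbx5 and Gata4, fell by 1.68.

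In C1 versus B, 3 of the 7 partners rose, Smarcd3 by 1.92, Gata6 by 1.34 and Gata4 by 1.20, while Mef2c fell by 8.88 (33.7% of all genes called). In C2 versus C1, where 20.4% of all genes were called, 2 rose, Mef2c by 5.11 and Gata6 by 1.86, and 0 fell. In C3 versus C2 (27.9% of all genes called), 3 fell, with log2 differences of -4.80 for Mef2c, -1.35 for Gata6 and -1.21 for Hand2. In C3 versus C1, Srf, a cytoskeletal and muscle gene regulator, rose by 1.54 and Smarcd3 fell by 1.04 (34.8% of all genes called). In C1 versus A (26.6% of all genes called), 5 of 7 fell, among them Mef2c (-6.98), Hand2 (-1.82), Gata4 (-1.13) and Srf (-1.10). Mef2c thus fell, rose and fell between B, C1, C2 and C3, with centred values of 3.84 and 3.71 for B, -5.61 and -4.62 for C1, 0.11 and -0.11 for C2 and -5.24 and -4.36 for C3.

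Genes known as targets of T-box factors were read from a list of 18, of which 13 were tested. Bmp10 was listed at 0, and Gja5, Hcn4, Fgf8 and Fgf10 did not pass the filter. In B versus A, 3 of 13 fell, the growth regulator Mycn by 2.77, the lymphatic growth factor receptor gene Flt4 by 1.78 and the gap junction gene Gja1, which Tbx2 and Tbx3 repress in the embryo, by 1.49. These 3 of 13 stand beside 26.9% of all tested genes called in that comparison, so the share is near the background. In C1 versus B, 2 rose and 1 fell, beside 33.7% of all genes, and in C1 versus A, 2 rose and 2 fell, beside 26.6%. Cdkn1a, a cell cycle inhibitor gene, fell in both comparisons (-2.31 from B and -1.62 from A).

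Between the cultures 3 targets rose and 3 fell in C2 versus C1, beside 20.4% of all genes called. In C3 versus C2, 4 rose and 2 fell, beside 27.9%, and in C3 versus C1, 5 rose and 2 fell, beside 34.8%. Cdkn1a, named here after its values were seen, rose in C3 over C2 by 1.33 (limma adjusted p = 0.0477) and over C1 by 1.47 (limma adjusted p = 0.0296). Nppb, a natriuretic peptide gene, was at or under the limit in every type but C3, at 134 and 296 normalized reads. Cdkn2a, the senescence gene that Tbx2 and Tbx3 repress, fell from C1 to C2 (-3.73) and from C2 to C3 (-4.90). Gja1 was higher in C3 than in C1 by 3.69 ± 0.13 (limma adjusted p = 5.82e-06). No direction shared between a T-box gene and its targets was tested.

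Markers of other cell types moved with several of these results, and their part in them was not tested. In bulk RNA, fewer cells of a type and less RNA per cell cannot be told apart. Between A and B, 10 of 10 macrophage markers were higher in B (median 7.28), 6 of 10 fibroblast markers were lower and 5 of 9 pericyte and smooth muscle markers were lower, beside the lower Tbx2, Tbx5 and Tbx18. In the same comparison 6 of 10 epicardial and mesothelial markers were higher in B and 0 lower (median 3.64), and 2 of 7 endothelial markers were higher. Of all tested genes 26.9% were called there, 14.5% higher and 12.4% lower, so the endothelial count is near the share called in either direction. Between B and C1, 10 of 10 macrophage and 7 of 7 endothelial markers fell, as did 4 of 10 fibroblast and 4 of 10 epicardial and mesothelial markers, beside the rise of Tbx15 and the fall of Tbx2. Pericyte and smooth muscle markers fell in 5 of 9 and rose in 1. These counts from B to C1 stand beside 33.7% of all tested genes called, 12.6% higher and 21.1% lower. The mean centred value of the endothelial list was 1.91 and 3.57 in A, 4.40 in each B library, and at most -0.16 in the cultures. Fibroblast markers rose in 5 of 10 and fell in 1 from C1 to C2, and fell in 10 of 10 from C2 to C3, the steps over which Tbx2 rose and fell. Epicardial and mesothelial markers rose in 4 of 10 and in 6 of 10 over these steps, and 0 fell. Of all tested genes, 12.2% rose and 8.18% fell from C1 to C2, and 11.6% rose and 16.2% fell from C2 to C3. The mean centred value of the 10 epicardial and mesothelial markers was -1.72 and -2.02 in A and 3.04 and 3.02 in C3, while Tbx18 was highest in A. The list was not uniform. In C3 versus A, 8 of the 10 were higher (14.4% of all genes), 1 was lower (19.9%) and Wt1 was not called. The lower one, Aldh1a2, had centred values of 8.90 and 6.66 in A and -2.39 and -2.77 in C3. Since levels are centred, a summed level cannot be given for these lists.

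The A libraries, which disagreed on Tbx3 and Tbx15, also differed in these markers. The mean centred value of the macrophage list was -0.05 in A replicate 1 and 3.95 in A replicate 2, against 9.32 and 9.31 in B and at most 0.18 in the cultures. Ptprc, which encodes CD45, was at 6.72 and 82.1 normalized reads in A, 2823 and 2723 in B, and at or under the limit in all culture types. Kit, which encodes c-kit, was at 3.36 and 72.3 in A, the first of these under 3 reads of that library, although both were sorted as c-kit positive. Of 8 cardiomyocyte markers, Myh6 was listed at 0 in every library, Actc1, Ryr2, Pln and Actn2 did not pass the filter, and Tnnt2, Tnni3 and Myl7 were tested. The mean centred value of these 3 was -0.86 and -1.17 for C1, 1.03 and 1.11 for C2 and 1.94 and 2.12 for C3. Myl7, an atrial myosin light chain gene, was at 50.4 and 41.4 normalized reads in C3 and at or under the limit in the other types. Tnni3, the cardiac troponin I gene, rose by 4.91 from C1 to C2 and fell by 2.99 from C2 to C3.

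For each tested T-box gene the genes with the most similar profile were read from the Pearson correlation over the 10 libraries, which come in 5 pairs of a type. Closest to Tbx2 were Ccdc8 (r = 0.979), Emc10 (0.977) and Mcam (0.975), and closest to Tbx3 were Il20rb (0.938), Mthfsd (0.920) and Snhg7 (0.903). Closest to Tbx5 were Notch4 and 2010001M06Rik (0.954 each) and Dclk1 (0.950). Dclk1 was also among the closest to Tbx20 (0.968), with Aoc3 (0.968) and Scml4 (0.955). Tspan4, Slco3a1 and Tubb3 stood closest to Tbx18 (0.971 each), and Hddc2 (0.978), Rev1 (0.977) and Pcm1 (0.975) closest to Tbx15. Among the T-box genes themselves, r was 0.877 between Tbx5 and Tbx20 and 0.769 between Tbx5 and Tbx18. It was -0.79 between Tbx15 and each of Tbx18 and Tbx20, and 0.23 between Tbx2 and Tbx3, the related repressors.

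Of 9 further T-box genes, 6 had values and 2 were tested. Tbx6 is a factor of the presomitic mesoderm, and its level is in units of unknown size, as for Tbx2 and Tbx3. It had 856 ± 244 units for A, 829 ± 180 for B, 642 ± 37.6 for C1, 1011 ± 114 for C2 and 86.5 ± 22.0 for C3 (SD, n = 2 each). Tbx6 fell in C3, by 3.57 on the log2 scale from C2 (limma adjusted p = 0.000190) and by 2.91 from C1 (limma adjusted p = 0.000201). Mga, which carries a T-box and a second DNA-binding domain, was called in none of the 6 comparisons and was higher in C2 than in B by 1.06. Tbr1, T, Tbx10 and Eomes had only low values and were not tested, and Tbx19, Tbx21 and Tbx22 were listed at 0.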

How the data were processed

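Libraries were made with the Illumina TruSeq RNA kit, per the labels' protocols. TopHat, DESeq and the mouse build mm10 are named in the submitters' processing notes, with no version or role, and the sources used here give neither the counter nor the annotation. The deposited values are on a log2 scale, and the authors' steps behind them were inferred from the values: log2 of normalized reads with a floor of 1, minus the median of each gene, which was 0 within 1e-05 for 17821 of 17821 genes with values. The reading is not certain, since between 33.1% and 70.6% of low values per library were whole reads, so no count test was run. A further 17 genes had a cell turned into a date and were left out.

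The level of a gene was taken from a floor shared by at least 2 libraries (4763 genes). For genes without one, the smallest number was taken that made at least 9 of 10 libraries whole. The tolerance was 0.01 plus 1e-05 of the number and at most 0.05. This rule, made after seeing the data, solved 46 of 653 genes tried, and also Tbx2, Tbx3 and Tbx6. It assumes whole reads, which many low values are not, so its unit may be a part of a read. Several of its numbers share a large common divisor, such as 255, 306 and 918 in Tbx2 and 306, 357, 612 and 663 in Tbx6. Levels of these genes are therefore given in units of unknown size. The filter of 10 normalized reads in 2 libraries removed 3568 genes. limma 3.58.1 (R 4.3.3) was fitted with a mean per type to all 10 libraries (5 residual and 1.93 prior degrees of freedom, prior SD 0.211), two-sided, and was tested on simulated data. No trend with level and no pseudocount were used, which departs from the plan, because the values are centred logarithms. Genes at or under 3 reads of a type are given as bounds. Tables were made with Python 3.11.15, pandas 2.3.3 and numpy 2.4.6. Gene positions and exon lengths come from GENCODE on GRCm38, which corresponds to mm10.

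The genes and lists were chosen with earlier results of these data known. All 8 members are given with every library, beside other T-box genes with values, the 3 closest genes to each tested member, and up to 4 called partners and 4 called targets per comparison, those with the largest difference. Some targets that this rule names are not reported here, though the counts include them. Alternatives were a fit of the compared types alone, the replicate number as a block, quantile normalization, centred library medians, a filter of 50 normalized reads, no filter, and each library left out. A fit without both A libraries was added after seeing the data.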

Additional observations from a re-analysis of the deposited data

How the results depend on the processing

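Of 594 differences of the tested T-box genes recomputed under the alternatives, 562 kept their direction and their side of the threshold, 16 gained and 9 lost a call, and 7 turned direction, none of them called before or after. Leaving out a library leaves its type with 1, which is then assumed to vary like the other types. In these fits Tbx15 in B versus A ran from -1.92 (without A replicate 2) to 0.44 (without A replicate 1), with -0.74 in the full fit. Tbx5 in C2 versus C1 ran from -0.98 (without C2 replicate 2) to 0.37 (without C2 replicate 1) and was 0.10 without C1 replicate 2 (-0.31 in full). Tbx15 in C3 versus C2 ran from -0.19 (without C2 replicate 2) to 0.020 (without C2 replicate 1). Tbx20 in C3 versus C2 ran from -0.20 (without C3 replicate 2) to 0.31 (without C3 replicate 1) and was -0.07 without C2 replicate 1. Tbx3 in C1 versus A ran from -2.17 (without A replicate 1) to 0.57 (without A replicate 2), with -0.80 in full. The number of called T-box genes, leaving out each library in turn, ran from 2 to 4 in B versus A (3), from 2 to 3 in C1 versus B (2), from 1 to 1 in C2 versus C1 (1), from 1 to 2 in C3 versus C2 (1), from 1 to 2 in C3 versus C1 (2), from 4 to 6 in C1 versus A (5) and from 5 to 9 for neighbouring pairs (6). Quantile normalization gave 2 in C2 versus C1 (adding Tbx20), 2 in C3 versus C2 (adding Tbx18) and 1 in C3 versus C1 (without Tbx5, whose adjusted p became 0.127). Centred library medians and the fit without both A libraries each gave 2 in C3 versus C2, adding Tbx5, and the filter of 50 normalized reads gave 1 in C3 versus C1, because Tbx5 is removed by it. The causes of the other moves were not tested. With the replicate number as a block the counts were 3, 2, 1, 1, 2 and 5 in the order above, and 6 neighbouring pairs, and the block changed no call of a T-box gene. The correlations of same-numbered deviations between types ran from -0.061 to 0.089. They cannot show whether same-numbered libraries share an animal or a dish. Over all genes, quantile normalization moved the split of calls in C1 versus B from 1799 higher and 3005 lower to 2290 and 2240, in C2 versus C1 from 1740 and 1166 to 1948 and 2014, in C3 versus C2 from 1656 and 2315 to 2079 and 1865, and in C1 versus A from 1433 and 2365 to 2217 and 2105. The fit of the compared types alone called 2538 genes in B versus A against 3835, and 2375 in C1 versus A against 3798. Depth limits what can be said of Tbx4, and of Tbx5 outside A, whose values lie near or under the limit of 3 reads. It may also limit Tbx2, Tbx3, Tbx6, Tbx15, Tbx18 and Tbx20, since the reads behind their values are not known. Among these are the low Tbx2 values of C1 and the low Tbx15 values of A and B. The limit of 3 reads is worth 6.12 normalized reads in the shallower C2 library and under 1 in C3.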
